A study of Homo sapiens with 6 samples.

Results

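Chromatin occupancy of 2 transcription factors, PLAG1-S and USF2, was examined at 38 genes of cytokine receptor, JAK-STAT and RAS signalling in K562, a human line derived from chronic myeloid leukemia. The genes were taken from a list of members of these pathways, and they were 38 of 20033 protein-coding genes on chromosomes 1 to 22, X and Y. They were chosen with earlier results of these data known, and the part of that choice in the counts below was not tested. They comprised 8 receptors and receptor subunits, 4 JAK kinases, 6 STATs, 6 adaptors and RAS activators, 2 RAS GTPases, 7 other kinases and 5 negative regulators.

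The series holds ChIP-seq of the K562 clones #4 and #5, both engineered to overexpress Flag-PLAG1-S together with USF2, and each clone gave an anti-Flag, an anti-USF2 and an input library. Both transgenes were expressed from a single lentiviral construct, in which a P2A site separated them, so that all libraries, inputs included, came from cells that carried both. Each line was 1 clone, no line without the transgenes was analysed here, and the USF2 antibody can recognise both the introduced and the endogenous protein. Reads were single-end, 50 bp long, with a stated depth of 42.5 M per immunoprecipitated library and of 55 M per input, and the peaks of each immunoprecipitated library were called against the merged inputs.

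Hematopoietic cytokines bind receptors that either hold a kinase domain themselves, such as KIT, or lean on an attached JAK kinase, such as the erythropoietin receptor. Activated receptors recruit STAT proteins, which move to the nucleus to act on transcription, and adaptors that switch on RAS and the kinases downstream of it, while phosphatases, ubiquitin ligases and inhibitory adaptors damp the signal. In chronic myeloid leukemia the BCR-ABL1 fusion kinase drives the same STAT and RAS branches without a cytokine. PLAG1 is a zinc finger factor that recognises a G-rich bipartite sequence, and USF2 is a basic helix-loop-helix leucine zipper factor that recognises the E-box CACGTG.

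PLAG1-S peaks that both clones shared lay at 29 of the 38 genes, and shared USF2 peaks lay at 7. A peak was given to a gene when it lay inside the gene or within 3 kb of it, and a peak of clone 4 was called reproducible if it shared 1 bp or more with one that clone 5 gave for that factor. The share with a reproducible PLAG1-S peak was 76.3% of the 38 genes, 58% of 100 other genes of the same pathways and 52.0% of all coding genes. The share with a reproducible USF2 peak was 18.4% of the 38 genes, 11% of the 100 others and 10.3% of all coding genes. All 7 genes with a reproducible USF2 peak, namely NRAS, HRAS, STAT3, STAT5A, MAPK3, PIK3CD and SH2B3, also had a co-bound site, meaning a reproducible PLAG1-S peak whose edge lay within 100 bp of a reproducible USF2 peak, which 9.98% of all coding genes had. STAT3 and STAT5A shared 1 such site, so that the 7 genes had 6 distinct sites between them. Counted within each clone and then averaged, which pairs the libraries of a clone (a replicate block), 31.5 genes had a PLAG1-S peak, 14 a USF2 peak and 12 a co-bound site. No share over all coding genes was averaged in this way. Without clone 5, the lists of clone 4 alone gave 19 genes with a USF2 peak and 17 with a co-bound site. Over all coding genes those 2 shares were 25.3% and 20.5%. With each list held to the length of the shortest, 11 genes (28.9%) had a reproducible PLAG1-S peak, against 15.2% of all coding genes. These shares are counts over genes, not over samples, and the 38 genes were longer (median 57449 bp) than all coding genes (median 24130 bp). Coding genes with a reproducible PLAG1-S peak had a median length of 28835 bp and those without one of 19028 bp. Within the 38 genes the order was the other way, at 55029 bp for the 29 and 59869 bp for the other 9. The part of gene length in the shares was not tested.

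A count that depends less on gene length asks for a peak within 1 kb of a listed transcription start. Of the 34 genes with a start in the RefSeq promoter table used, 20 (58.8%) had a reproducible PLAG1-S peak there, against 41.8% of 15842 coding genes. Reproducible USF2 peaks lay within 1 kb of a start of 3 genes (8.82%), against 7.63%. Those were also the genes with a co-bound peak there, NRAS, MAPK3 and SH2B3, against 7.53% of all. For co-bound sites, the share of the 38 genes was thus above the whole-genome share when genes and their 3 kb flanks were counted. At starts it was about equal to the whole-genome share.

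**Figure D1:**
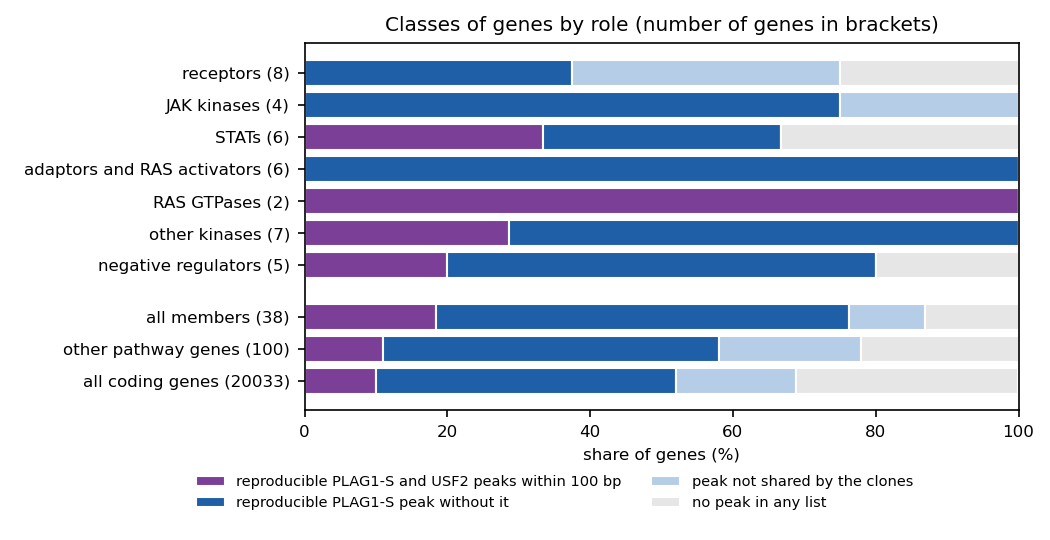
Share of genes (%) in each of 4 classes, for the 7 roles, for all 38 genes, for 100 other genes of the same pathways and for all 20033 coding genes. Both RAS genes and 2 of 6 STATs fall in the co-bound class, and none of the 8 receptors, 4 JAK kinases or 6 adaptors does.

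The 3 promoters that met co-bound peaks are shown first, because at NRAS and MAPK3 the summits can be read against the sequence. Each line gives the 250 bases before a listed start, 5′ to 3′ on the strand of the gene, from RefSeq (GRCh38.p14). Capitals mark every CACGTG, which reads the same on both strands, and every match on either strand to the bipartite PLAG1 consensus (a GC-rich core and a G cluster 6 to 8 bases apart); overlapping matches run together. The NRAS sequence spans chr1:114716772-114717021 on the minus strand, that of MAPK3 chr16:30123221-30123470 on the minus strand, and that of SH2B3 chr12:111405673-111405922 on the plus strand. EPOR (chr19:11384315-11384564, minus strand) is given as the receptor with the strongest PLAG1-S peak and no USF2 peak at its start. FLT3 (minus strand) is given as the only other gene with CACGTG among the 34 that had a promoter entry, and none of the 4 lists had a peak there. The last pair was picked after the values were seen.
NRAS: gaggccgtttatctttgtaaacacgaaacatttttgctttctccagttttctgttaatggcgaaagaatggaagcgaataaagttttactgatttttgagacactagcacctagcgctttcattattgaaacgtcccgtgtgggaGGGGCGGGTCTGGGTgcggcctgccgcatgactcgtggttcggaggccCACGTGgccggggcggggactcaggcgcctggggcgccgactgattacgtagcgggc
MAPK3: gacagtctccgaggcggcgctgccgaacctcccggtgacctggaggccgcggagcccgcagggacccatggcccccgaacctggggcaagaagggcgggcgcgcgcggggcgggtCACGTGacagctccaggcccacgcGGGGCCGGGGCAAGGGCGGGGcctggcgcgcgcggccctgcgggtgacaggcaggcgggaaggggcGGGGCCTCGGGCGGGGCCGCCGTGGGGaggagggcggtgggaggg
SH2B3: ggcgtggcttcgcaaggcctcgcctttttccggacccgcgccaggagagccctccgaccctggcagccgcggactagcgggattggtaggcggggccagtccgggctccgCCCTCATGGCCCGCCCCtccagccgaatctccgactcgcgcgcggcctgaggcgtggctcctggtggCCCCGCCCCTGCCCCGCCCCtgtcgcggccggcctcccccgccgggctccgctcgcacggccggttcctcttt
EPOR: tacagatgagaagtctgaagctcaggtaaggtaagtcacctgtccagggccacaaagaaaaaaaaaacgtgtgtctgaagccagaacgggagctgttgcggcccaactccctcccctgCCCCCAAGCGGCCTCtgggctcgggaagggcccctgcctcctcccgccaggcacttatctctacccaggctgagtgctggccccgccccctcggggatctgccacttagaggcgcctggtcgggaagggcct
FLT3: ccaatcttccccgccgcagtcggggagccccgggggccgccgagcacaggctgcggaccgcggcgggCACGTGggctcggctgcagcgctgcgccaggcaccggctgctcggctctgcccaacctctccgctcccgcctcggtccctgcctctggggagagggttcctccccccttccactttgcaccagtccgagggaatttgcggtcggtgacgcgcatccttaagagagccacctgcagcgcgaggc

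In NRAS the CACGTG lay at chr1:114716823-114716828, with 51 bases between it and the start. The PLAG1-S summits were 4 bp from it in clone 4 and 4 bp in clone 5, and the USF2 summits were 0 bp and 3 bp from it. The single PLAG1 consensus match lay further out, 30 bp from both PLAG1-S summits. In MAPK3 the CACGTG lay at chr16:30123350-30123355, and the 4 summits were 25 to 30 bp from it. The 4 PLAG1 consensus matches in that sequence were 49 to 132 bp from the summits. In SH2B3 the printed stretch begins at the clone 4 PLAG1-S summit and the other 3 summits lie just before it, so that it shows 1 side of the peak only. It holds no CACGTG and 3 PLAG1 consensus matches. The EPOR match was 30 bp from the clone 4 summit and 34 bp from that of clone 5. A match is a string of letters in this window and not a measured binding site.

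How common these letters are was counted over windows from 250 bases before to 50 bases after each listed start. CACGTG occurred in 8.34% of 22198 windows of 15842 coding genes, and in 55.9% of the 1302 windows that met a co-bound peak. Among the windows of the 38 genes it occurred in 2 of the 3 that met a co-bound peak, in 0 of the 17 that met a reproducible PLAG1-S peak that was not co-bound and in 1 of the 34 that met no reproducible PLAG1-S peak. Over all coding genes it occurred in 11.1% of the 5096 windows of the former kind and in 3.53% of the 15800 of the latter. The PLAG1 consensus occurred in 32.1% of all windows and in 45.3% of those with a PLAG1-S peak that was not co-bound. It was found in 9 of the 17 such windows of the 38 genes and in 10 of the 34 without a reproducible PLAG1-S peak, against 26.9% of all windows without one. Some of the 17 and of the 34 windows met peaks that the clones did not share, as at BRAF, JAK1 and TYK2. The 17 windows had a median of 72.3% G and C, and the 34 had 60.0%. Over all coding genes the medians were 69.7% and 58.7%. CBL, CSF2RB, PTPN11 and LYN had no promoter entry.

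**Figure D2:**
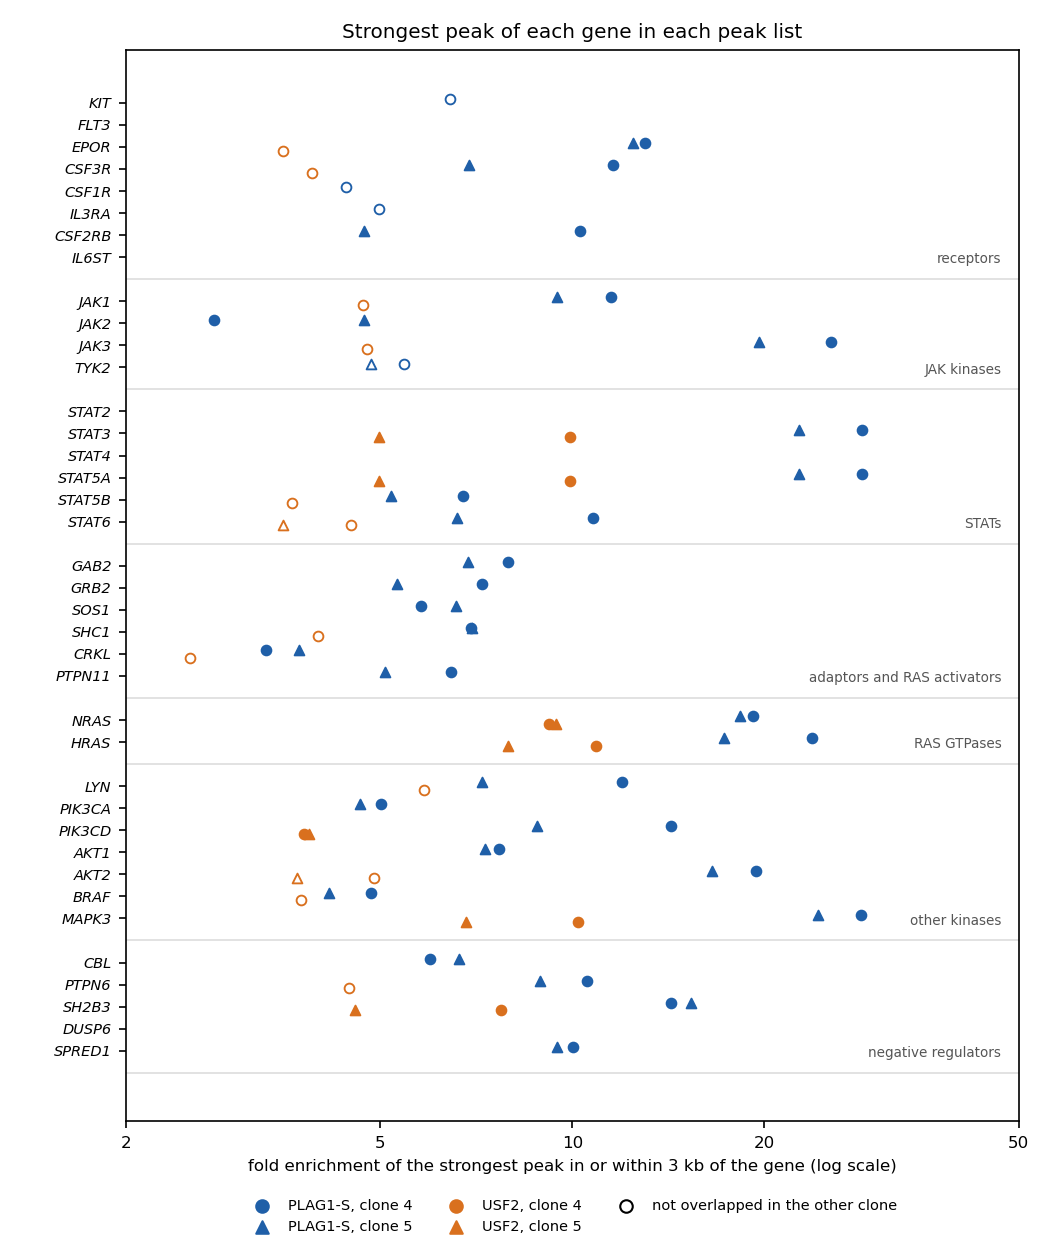
Fold enrichment (log scale) of the strongest peak of each of the 38 genes in each of the 4 peak lists, grouped by role. Blue marks are PLAG1-S and orange marks USF2, circles are clone 4 and triangles clone 5, and open marks are peaks that no peak of the other clone overlapped. Filled orange marks are seen at 7 genes, and 5 genes have no mark.

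Values are given below as fold enrichment, the ratio at the peak summit of fragments to the local background after 1 is added to each. Folds were set side by side between clones of 1 factor, but not between factors, whose libraries came from different antibodies. The PLAG1-S lists also ended at a q-value near 0.01 and the USF2 lists near 0.05. The number of fragments over each summit was recovered from the deposited columns, and was between 12 and 134 at the 38 genes. Its exact 95% Poisson intervals cover counting error only. With 2 clones per factor an exact permutation test of 2 against 2 cannot go below a two-sided p of 0.333, so no gene was tested, and the clone values stand side by side.

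Both RAS genes measured carried a co-bound site (all coding genes 9.98%). NRAS and HRAS encode small GTPases that relay receptor signals to the RAF-MEK-ERK kinases. At NRAS the site (PLAG1-S peak chr1:114716501-114717027) was the only site of the gene, with its summit 61 bp upstream of the start. The PLAG1-S fold was 19.2 in clone 4 and 18.3 in clone 5, and the USF2 fold was 9.20 and 9.42. The clones were close at this site for both factors, with log2 ratios of clone 5 to clone 4 of -0.07 for PLAG1-S and 0.03 for USF2. In clone 4, 121 fragments (95% interval 100 to 145) lay at the PLAG1-S summit and 61 (46.7 to 78.4) at the USF2 summit. At HRAS the co-bound site (PLAG1-S peak chr11:537121-537778) lay 1766 bp upstream of the start, inside the coding gene LRRC56. Its PLAG1-S fold was 23.8 in clone 4 and 17.3 in clone 5, and its USF2 fold was 10.9 and 7.94, so that both were lower in clone 5. HRAS also had PLAG1-S peaks on both sides of its own start, the stronger of fold 9.91 in clone 4 and 11 in clone 5 at 412 bp and 383 bp downstream, where no USF2 peak was called.

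Of the STATs, 4 of 6 had a reproducible PLAG1-S peak (all coding genes 52.0%) and 2 had a co-bound site (9.98%). Such PLAG1-S peaks numbered from 1 at STAT6 to 9 at STAT3. Reproducible PLAG1-S peaks lay at STAT3, STAT5A, STAT5B and STAT6, and STAT2 and STAT4 had no peak in any of the 4 lists. STAT5A and STAT5B transmit erythropoietin and interleukin signals and are active in BCR-ABL1 cells, STAT3 answers to interleukin-6 family cytokines, STAT6 to interleukin-4, STAT2 to interferons and STAT4 to interleukin-12. The PLAG1-S peak of highest clone 4 fold among the 38 genes (chr17:42312126-42313349), just above that of MAPK3, which was the higher in clone 5, lay between the 3′ ends of STAT5A and STAT3, which face each other, with its summit 879 bp past STAT5A and 502 bp from STAT3. Its PLAG1-S fold was 28.4 in clone 4 and 22.6 in clone 5, from 134 (112 to 159) and 106 (86.8 to 128) fragments. The USF2 peak within it had a fold of 9.90 in clone 4 and of 4.98 in clone 5, from 47 (34.5 to 62.5) and 22 (13.8 to 33.3) fragments. That USF2 log2 ratio, -0.99, lay at the lower edge of the central 95% of all reproducible USF2 peaks, which began at -0.99, and it was the largest difference between clones among the 6 USF2 peaks. From 3′ gap to upstream flank STAT3 had 9 reproducible PLAG1-S peaks, more than any other of the 38 genes, of which the one nearest its own start had folds of 3.46 and 5.38. Another, 503 bp upstream of that start in clone 4, had folds of 7.55 and 4.80.

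The promoters of STAT5A and STAT5B carried weaker peaks. STAT5B had 5 reproducible PLAG1-S peaks, 3 of which it shared with STAT5A because their 5′ ends overlap. The strongest of these had a fold of 6.75 in clone 4 and 5.20 in clone 5, with its summit 46 bp upstream of a STAT5A start in clone 4. The peak at the listed STAT5B start had folds of 4.80 and 3.03. Another, 355 bp upstream of that start in clone 4, had folds of 3.47 and 3.89. Over the latter, clone 4 alone had a USF2 peak, of fold 3.08. At STAT6 the peak lay 1558 bp upstream of the listed start, with folds of 10.8 and 6.60. A USF2 peak overlay it in clone 4 only, with a fold of 4.50.

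Of the receptors, 3 of 8 had a reproducible PLAG1-S peak (all coding genes 52.0%) and 0 had a reproducible USF2 peak (all coding genes 10.3%). The 3 were EPOR, CSF3R and CSF2RB, which encode the receptors for erythropoietin and G-CSF and the beta chain shared by the receptors for interleukin-3, interleukin-5 and GM-CSF. EPOR had the strongest, with its summit 88 bp upstream of the start in clone 4 and 84 bp in clone 5. The fold there was 13.0 in clone 4 and 12.5 in clone 5, from 62 (47.5 to 79.5) and 56 (42.3 to 72.7) fragments. The EPOR gene, which is 7108 bp long, held 3 further reproducible PLAG1-S peaks, at folds of 4.25 to 9.27 in clone 4. Its lone USF2 peak, of fold 3.52, was called in clone 4 only and lay 2622 bp inside the gene. At CSF2RB 1 of the 2 peaks was internal, with folds of 10.3 and 4.44. Its log2 ratio of -1.21 lay outside the central 95% of all reproducible PLAG1-S peaks, -0.98 to 0.72. The other, next to the 5′ end of the gene, had folds of 6.06 and 4.72. The CSF3R peak lay 1628 bp past the 3′ end of that gene in clone 4. Its summit was only 31 bp from the nearer edge of MRPS15, a gene for a mitochondrial ribosomal protein. The peak was thus nearer to MRPS15 than to CSF3R. It had folds of 11.6 and 6.88.

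The other 5 receptors had no peak that the clones shared. KIT, the stem cell factor receptor, had 1 PLAG1-S peak in clone 4, 2948 bp upstream of its start, of fold 6.42. CSF1R, the M-CSF receptor, had 1 in clone 4 of fold 4.42. IL3RA, the alpha chain of the interleukin-3 receptor, had 2 in clone 4, of fold 4.98 and 4.35, both past its end, the second of them nearer to SLC25A6. IL3RA lies in the pseudoautosomal region that X and Y share, and how reads that match both were treated is not given in the sources used here. FLT3 and IL6ST, the latter the gp130 chain of the interleukin-6 receptor, had no peak in any list. For clone 4 alone the share of receptors with a PLAG1-S peak was 6 of 8, and for clone 5 alone 3 of 8. Over all coding genes those shares were 64.0% and 58.3%.

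Of the 4 JAK kinases, JAK1, JAK2 and JAK3 had a reproducible PLAG1-S peak (all coding genes 52.0%) and none had a reproducible USF2 peak (10.3%). JAK3, which pairs with the common gamma chain in lymphoid cells, had the strongest, in the gene 5569 bp from its start (chr19:17842205-17842962). The PLAG1-S fold was 25.4 in clone 4 and 19.6 in clone 5, from 100 (81.4 to 122) and 73 (57.2 to 91.8) fragments. It ranked in the strongest 1.70% of the clone 4 list and the strongest 2.44% of the clone 5 list. A USF2 peak was called over it in clone 4 only, at a fold of 4.77 and 10 bp from the PLAG1-S summit. JAK1, used by many interferon and interleukin receptors, had a peak of fold 11.5 in clone 4 and 9.46 in clone 5 at its start and another of fold 8.27 and 7.10 at an internal start. JAK2, the kinase of the erythropoietin receptor, had the weakest, with 2.74 in clone 4 and 4.72 in clone 5 from 15 and 16 fragments. TYK2, which serves interferon and interleukin-12 receptors, had 1 peak in each clone, of fold 5.45 and 4.85. The TYK2 peaks lay apart, at the start in clone 4 and inside the gene in clone 5, and did not count as reproducible.

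All 6 adaptors and RAS activators had a reproducible PLAG1-S peak (all coding genes 52.0%) and 0 of 6 had a reproducible USF2 peak (10.3%). Their strongest peaks were low, with folds of 3.31 to 7.92 in clone 4 and a median of 6.70, where the median over all 10421 coding genes with such a peak was 8.17 and over the 29 genes here 10.5. With each list held to the length of the shortest, 0 of the 6 had a reproducible PLAG1-S peak, against 15.2% of all coding genes. At that setting 1 of 8 receptors, 2 of 4 JAK kinases and 2 of 6 STATs had one. So did 2 of 2 RAS GTPases, 3 of 7 other kinases and 1 of 5 negative regulators. Median gene length was 89287.5 bp for these adaptors, 91968 bp for the other kinases, 52887 bp for the receptors and 7819 bp for the RAS GTPases. Of the adaptors GAB2, a docking protein that BCR-ABL1 uses, had the strongest peak in clone 4. Its fold was 7.92 there and 6.86 in clone 5, with summits 241 bp and 289 bp upstream of the start. GRB2, the adaptor that brings SOS1 to receptors, had 7.22 and 5.31 at its start. SOS1, the exchange factor that loads RAS with GTP, had 5.79 and 4.56 there and 5.49 and 6.58 at an internal start. PTPN11, the phosphatase SHP2 that favours RAS activation, had 6.45 and 5.10 next to its 5′ end. The SHC1 peak, of fold 6.95 and 6.96, lay 281 bp past the 3′ end of that gene in clone 4. Its summit was nearer to PYGO2, 235 bp from the nearer edge of that gene. The 2 PLAG1-S peaks near the SHC1 start were called in clone 4 only.

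CRKL, an adaptor phosphorylated by BCR-ABL1, had low folds beside high fragment counts. Its PLAG1-S peak lay across the start (chr22:20916797-20918248) and had folds of 3.31 in clone 4 and 3.73 in clone 5. By fold it ranked at 95.2% of the way down the clone 4 list, but by fragments at 7.23% with 68 (52.8 to 86.2). In clone 5 it ranked at 87.5% by fold and at 4.62% by fragments, with 73. The local background under it was 19.9 fragments in clone 4 and 18.8 in clone 5. At PLAG1-S peaks of the other 37 genes that background ran from 2.80 to 8.59 in clone 4 and from 2.60 to 7.12 in clone 5. Raised backgrounds were also seen within 100 kb of BCR, on the same chromosome, with a median of 16.5 over 58 clone 4 peaks, and within 100 kb of ABL1, with 16.5 over 54. The median over the whole clone 4 list was 3.67. K562 is known for extra copies of the BCR-ABL1 region, and the part of copy number in the CRKL values was not tested. Over the same site USF2 had 2 peaks in clone 4 only, of fold 2.40 and 2.52, on backgrounds of 16.1.

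**Figure D3:**
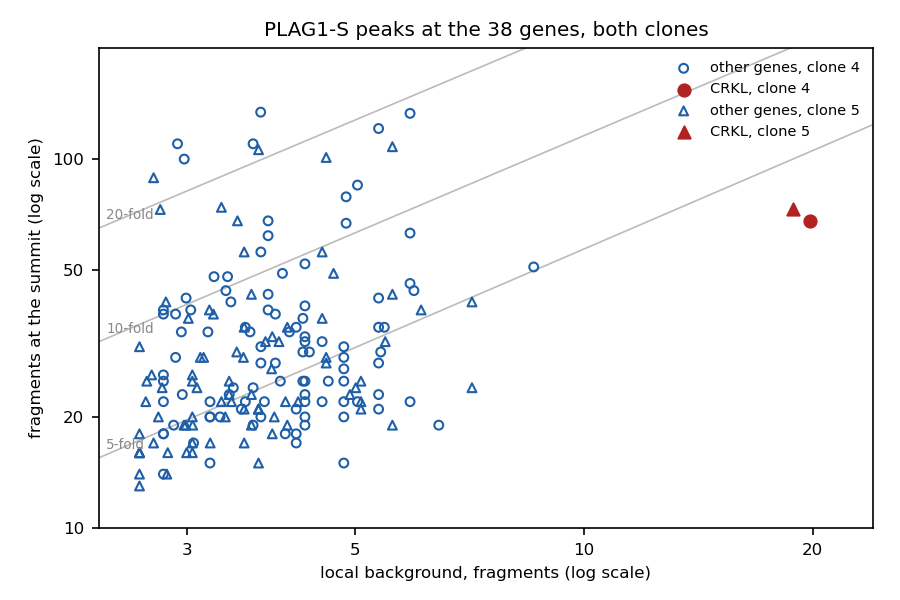
Fragments at the summit against local background (both in fragments, log scales) for the PLAG1-S peaks of the 38 genes in both clones, circles clone 4 and triangles clone 5, with lines of equal fold. The CRKL peaks, in red, sit at 68 and 73 fragments over backgrounds of 19.9 and 18.8, and no other peak has a background above 8.59.

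All 7 of the other kinases had a reproducible PLAG1-S peak (all coding genes 52.0%), and MAPK3 and PIK3CD had a co-bound site (9.98%). MAPK3 encodes ERK1, a last kinase of the RAS cascade. Its site (PLAG1-S peak chr16:30122708-30123612) covered the start, with the summit 160 bp upstream in clone 4 and 163 bp in clone 5. The PLAG1-S fold was 28.3 in clone 4 and 24.2 in clone 5, from 110 (90.4 to 133) and 89 (71.5 to 110) fragments, and the USF2 fold was 10.2 and 6.82. PIK3CD, the leukocyte catalytic subunit of PI3 kinase, had its co-bound site inside the gene (PLAG1-S peak chr1:9717062-9718004), 26289 bp from the nearest listed start. There the PLAG1-S fold was 14.3 in clone 4 and 8.80 in clone 5, and the USF2 fold was 3.81 and 3.87. This USF2 peak was weak, from 22 (13.8 to 33.3) fragments in clone 4 and 21 (13.0 to 32.1) in clone 5.

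AKT2, a kinase downstream of PI3 kinase, had a strong PLAG1-S peak 1380 bp from its 3′ end, of fold 19.4 in clone 4 and 16.5 in clone 5, from 133 and 108 fragments. A USF2 peak overlay it in clone 4 only, of fold 4.90. At the AKT2 start the PLAG1-S fold was 9.48 and 9.49. LYN, a SRC family kinase, had its strongest peaks inside the gene, with folds of 12 and 11.1 in clone 4 and of 6.11 and 7.22 in clone 5. Clone 4 alone had USF2 peaks over both of those LYN sites, of fold 5.85 and 4.55. The strongest reproducible PLAG1-S peaks of AKT1, PIK3CA and BRAF had clone 4 folds of 7.69, 5.02 and 4.84.

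Of the negative regulators, 4 of 5 had a reproducible PLAG1-S peak (all coding genes 52.0%) and 1, SH2B3, had a co-bound site (9.98%). SH2B3 encodes LNK, an adaptor that restrains JAK2 and the thrombopoietin and erythropoietin receptors. Its co-bound site (PLAG1-S peak chr12:111405253-111406731) had the summit 250 bp upstream of the listed start and 943 bp inside the gene, which has an earlier 5′ end. The PLAG1-S fold was 13.6 in clone 4 and 10.3 in clone 5, and the USF2 fold was 7.72 and 4.57. A further PLAG1-S peak 4108 bp downstream of that start had folds of 14.3 and 15.3, with a USF2 peak within 100 bp in clone 5 only, of fold 3.69. PTPN6, the phosphatase SHP1, had an internal peak of fold 10.5 and 8.89 with a USF2 peak of fold 4.47 in clone 4 only. SPRED1, which blocks RAF activation, had 10.0 and 7.88 upstream of its start, and CBL, a ubiquitin ligase for receptors, had 5.98 and 6.64 at its 5′ end. DUSP6, a phosphatase of ERK, had no peak in any list.

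**Figure D4:**
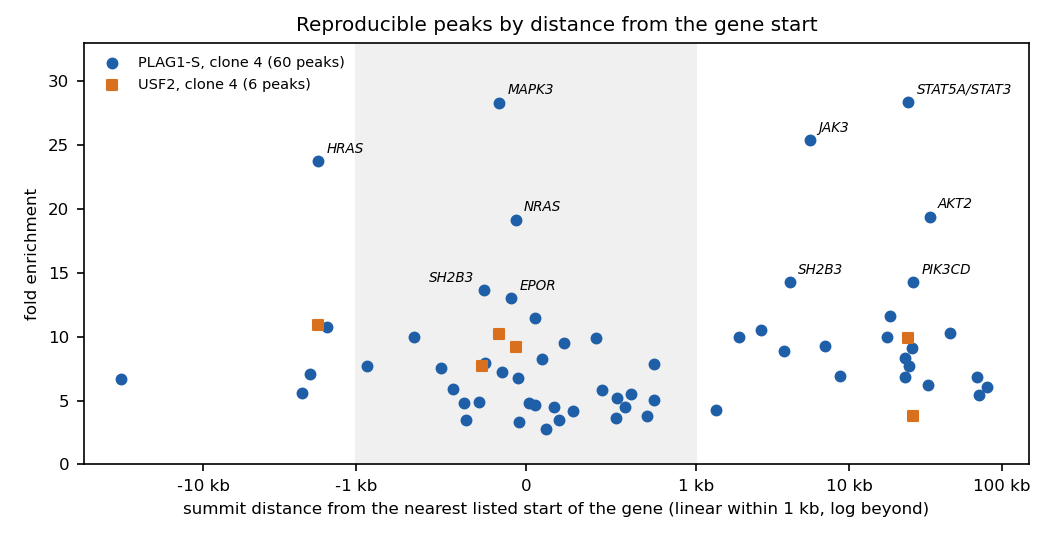
Fold enrichment in clone 4 of each reproducible peak against the distance of its summit from the nearest listed start of the gene (linear within 1 kb, shaded, and log beyond), for PLAG1-S (60 peaks, blue) and USF2 (6 peaks, orange). The 10 strongest PLAG1-S peaks carry a gene name and lie both at starts (MAPK3, NRAS, SH2B3, EPOR) and over 1 kb away.

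In position, 68 distinct reproducible PLAG1-S peaks lay at the 38 genes, of which 60 were at genes with a listed start. Of these 60, 33 had their summit within 1 kb of a start, 19 lay further away inside the gene and 8 further away outside it. The median clone 4 fold was 5.79 for the 33 near starts and 8.86 for the 19 internal ones. In all 68 the median fold was 7.16 and the median width 378 bp, where the whole list of 21469 reproducible peaks had 6.39 and 353 bp. At the 6 co-bound sites the PLAG1-S and USF2 summits of clone 4 were at most 36 bp apart, with a median of 11 bp, against a median of 15 bp over all 2108 co-bound peaks.

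USF2 peaks called in clone 4 only were frequent beside the reproducible PLAG1-S peaks. Of the 62 PLAG1-S peaks at the 38 genes that were not co-bound, 15 (24.2%) had a USF2 peak within 100 bp in clone 4 only and 1 (1.61%) in clone 5 only. The 15 lay at 13 genes, among them JAK1, JAK3, STAT6, CSF3R, CRKL, LYN, AKT2, BRAF and PTPN6. Over all 19361 such peaks the shares were 14.3% and 1.51%. The USF2 list of clone 4 held 9338 peaks and that of clone 5 held 4369, and the part of that difference in these shares was not tested. In the clone 4 lists 33 of the 38 genes had a PLAG1-S peak and 19 a USF2 peak, against 64.0% and 25.3% of all coding genes. In the clone 5 lists 30 had a PLAG1-S peak and 9 a USF2 peak, against 58.3% and 13.6%.

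Folds were usually lower in clone 5. The median log2 ratio of clone 5 to clone 4 was -0.24 over the 68 PLAG1-S peaks, 48 of which were lower in clone 5, and -0.17 over the whole list. The standard deviation was 0.46 at the 38 genes and 0.45 over the whole list. Outside the central 95% of the whole list lay 5 of the 68 peaks, at CSF2RB, JAK1, EPOR, HRAS and JAK2. At JAK1, HRAS and EPOR the clone 5 value came from 1 broad peak that spanned 2 peaks of clone 4. Of the 6 USF2 peaks 4 were lower in clone 5, with a median log2 ratio of -0.52, against -0.28 over all 2409.

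A wider set of 100 other genes of the same pathways was counted in the same way. A reproducible PLAG1-S peak lay at 58 of the 100, a reproducible USF2 peak at 11 and a co-bound site at 11, beside 52.0%, 10.3% and 9.98% of all coding genes. The 5 with the strongest co-bound PLAG1-S peak were PIAS4, PIK3R2, IL2RB, SHC2 and IL12RB1. PIAS4, a SUMO ligase that restrains STATs, had a PLAG1-S fold of 36.5 in clone 4 and 33.6 in clone 5 at 15 bp upstream of its start, above every peak at the 38 genes, and a USF2 fold of 16.7 and 12.3. At PIK3R2, a regulatory subunit of PI3 kinase, the PLAG1-S fold was 29.3 and 27.6 and the USF2 fold 13.0 and 9.18. At SHC2, an adaptor related to SHC1, the PLAG1-S fold was 23.8 and 25.9 and the USF2 fold 16.1 and 10.3. The receptor chains IL2RB and IL12RB1 had PLAG1-S folds of 25.3 and 12.8 and of 19.3 and 15.7.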

How the data were processed

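Peak lists of 4 immunoprecipitated libraries (PLAG1-S by anti-FLAG and USF2, clones #4 and #5) were analysed. Per the submitters' processing notes, tools included FastQC, cutadapt, HISAT2 2.0.4, SAMtools, MACS2, bedtools and HOMER; the MACS2 version is not given in the sources used here, and peak names show calling against merged inputs. The build is hg38. The fold deposited by the authors is a ratio at the summit of fragments to local background, after the same small constant is added to both. The −log10 p and −log10 q values deposited by the authors come from the Poisson model of MACS2. The score deposited by the authors is derived from −log10 q. The lists of PLAG1-S ended at q-values of 0.00990 and 0.00974, those of USF2 at 0.0494 and 0.0477. Peak numbers, and so all counts, depend on these thresholds and on the enrichment each library reached.

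The 38 genes, the 100 other genes, the roles and the rules were chosen with earlier results of these data known. Gene spans and starts came from RefSeq GRCh38.p14. By the rule for named genes, all 38 were accounted for, with values in every list for co-bound genes and for the strongest PLAG1-S gene of each role, and the 5 strongest co-bound genes of the wider set were named; the values of further genes were added after their values were seen. Fragments k and background were recovered where fold and −log10 p matched within 0.001, which held for 99.9% to 100.0% of peaks of each list. No gene was tested. The same replicate number marks the same clone, which pairs the PLAG1-S and USF2 libraries. Overlaps, recovery and intervals were tested on simulated data. Python 3.11.15, numpy 2.4.6, pandas 2.3.3, scipy 1.17.1 and matplotlib 3.10.9 were used. No column of the authors' own comparisons was used.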

Additional observations from a re-analysis of the deposited data

How the results depend on the processing

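The count of genes with a reproducible PLAG1-S peak (29) stayed within 1.5 times of itself under 14 of 15 alternatives. It was 11 when each list was reduced to as many of its strongest peaks as the shortest list holds. The count with a reproducible USF2 peak (7) was 3 inside the gene alone, 3 within 1 kb of a start, 3 at a −log10 q of at least 10 and 19 for peaks of either clone. The count with a co-bound site (7) was 3 within 1 kb of a start, 3 at a −log10 q of at least 10 and 18 for peaks of either clone. No share over all coding genes was counted inside the gene alone or at a −log10 q of at least 10. None was counted for peaks of either clone or for the replicate block. Whether all coding genes changed alike under those settings was not tested. In the paired analysis with a replicate block, counted within each clone and averaged, the counts were 31.5 for PLAG1-S, 14 for USF2 and 12 for co-bound sites. Leaving out a replicate gave 30 to 33, 9 to 19 and 7 to 17, the higher value being that of clone 4 alone in each case. NRAS and MAPK3 had a co-bound site under all 17 alternatives run over its membership, SH2B3 under 16, STAT3 and PIK3CD under 14, HRAS under 13 and STAT5A under 12. Giving each peak to the gene that holds it or lies nearest, an alternative chosen after seeing the data, left 27, 5 and 5, without CSF3R and SHC1 for PLAG1-S and without HRAS and STAT5A for the other counts. The causes of these changes were not tested. At 12 to 134 fragments per summit, a site without a peak may hold occupancy under the calling threshold.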
